A study of Mus musculus with 66 samples.

Results

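The comparison is between the nucleus accumbens of wild type (WT) mice given cocaine and of WT mice given saline, both collected at ZT23, that is 23 h after lights on, near the end of the dark phase. A single intraperitoneal injection of 20 mg/kg cocaine, or of saline, had been given at ZT3, so that 20 h separated injection and harvest. The members are the 3 WT cocaine and the 3 WT saline libraries at ZT23, 6 of the 66 libraries of the series, and the genes are the 13547 of 24138 listed genes that reached 1 FPKM in at least 1 of these 6. FPKM is the number of fragments per kilobase of transcript, scaled to the total of mapped fragments. The mice were adult C57BL/6 males kept in alternating light and dark, and both groups are labelled WT, with no transgene or deletion named. The tissue is labelled ventral striatum and was taken as punches. Whether a library stands for 1 animal or for several is not given in the sources used here. The p-values therefore measure the spread between libraries of the same group, pooled over the series. The rest of the series holds WT mice at ZT3, ZT7, ZT11, ZT15 and ZT19 and the same scheme in iMSN-D2RKO mice, in which a Cre driven by the dopamine D1 receptor promoter removes a floxed dopamine D2 receptor gene from the indirect pathway spiny neurons.

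Cocaine blocks the reuptake of dopamine, serotonin and noradrenaline, and in the accumbens the released dopamine acts on D1 and D2 receptors of the spiny projection neurons. Activation of D1 receptors and of glutamate receptors drives the cAMP and MAP kinase pathways, which switch on immediate early genes within minutes through transcription factors that are already present in the cell. The products of these genes are short-lived transcription factors, phosphatases that turn the MAP kinases off again, and synaptic proteins such as Arc. Mice are active and awake for much of the dark phase, and immediate early transcripts also vary with behavioural state and time of day.

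The 6 libraries summed to between 381427 and 420259 FPKM and held between 12758 and 12864 genes at 1 FPKM or more. Read counts and sequencing depth were not given with the FPKM. Each mean rests on 3 libraries, while intervals and p-values use a spread within groups estimated over all 66 libraries in 22 groups. Along the main axis of difference between libraries of the same group, 13 of the 66 libraries stood apart, and at ZT23 in WT these were saline replicate 1 and cocaine replicate 3. Correlations of log2 values were between 0.975 and 0.988 among libraries of the same kind and between 0.902 and 0.947 across the 2 kinds. Each group thus held 1 such library, and values are also given for this pair alone and for the other 2 against 2. All 18 markers of spiny neurons reached 1 FPKM, among them Drd1, Drd2, Penk and Adora2a.

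No gene passed the test across all genes, while several immediate early genes were more than 2-fold higher on average and higher in every cocaine library than in every saline library. With limma on log2(FPKM + 1), 0 of 13547 genes, or 0%, had an adjusted p under 0.05, and the smallest adjusted p was 0.662. Weighting libraries by an estimated precision gave 5547 genes, but that estimate did not converge and gave cocaine replicate 1 nearly all the weight. At an unadjusted p under 0.05 there were 90 genes higher after cocaine, 0.664% of those tested, and 82 lower, 0.605%. The 3 cocaine values lay above the 3 saline values in 302 genes, 2.23%, and below them in 267 genes, 1.97%. At ZT7, ZT11, ZT15 and ZT19 in WT the share above was between 4.79% and 5.74%, so that the share at ZT23 was a low one. The reason for this was not tested. The median log2 fold change over all genes was -0.0098. The 95% interval of the difference lay within a 2-fold change in both directions for 12637 genes, 93.3% of those tested, and its median half-width was 0.439 on the log2 scale. Both are on the log2(FPKM + 1) scale, which understates changes of genes with low FPKM. The median half-width is for 1 gene before adjustment. With 3 libraries a group, differences well above it, such as the 1.31 of Nr4a1 described below, did not pass the adjusted test.

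Among the 9606 genes with a mean of at least 5 FPKM, 32 had a log2 fold change beyond 1 in either direction, and in 6 of these the groups did not overlap. These 6, named after their values were seen, were Arc, Fos, Nr4a1, Egr2, Npas4 and an entry that joins Ctdsp2 with 2 microRNA genes. All 6 were higher after cocaine, and 5 of them are in the list of immediate early genes. In the joined entry the reads of its genes cannot be told apart, and it is not described further.

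**Figure D1:**
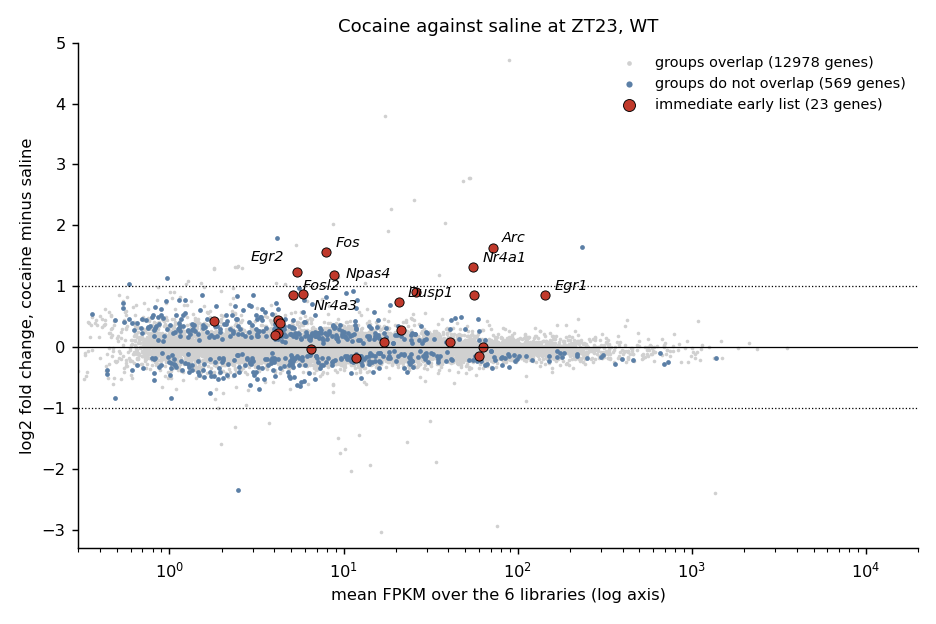
Each point is 1 of the 13547 genes tested, with its mean FPKM over the 6 WT ZT23 libraries on a log axis and its log2 fold change on the log2(FPKM + 1) scale, cocaine minus saline. Blue points are the 569 genes whose 2 groups do not overlap, red points the 23 immediate early genes, and dotted lines mark a 2-fold change. Arc, Fos, Nr4a1, Egr2 and Npas4 lie above the upper dotted line.

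Nr4a1 had the smallest p of all genes. It encodes a nuclear receptor without a known classical ligand that neurons induce quickly on stimulation, and lies at chr15:101254269-101274795 in GRCm38. The saline libraries held 26.6, 27.5 and 41.5 FPKM and the cocaine libraries 71.6, 88.1 and 77.6 FPKM. The lowest cocaine value was above the highest saline value, and the 2 set-apart libraries, at 26.6 and 77.6 FPKM, lay within the values of their own groups or at their edge. The log2 fold change was 1.31, with a standard error of 0.30, a 95% interval from 0.70 to 1.92, and an adjusted p of 0.662 by limma. With each library left out in turn it ranged from 1.20 to 1.51.

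Arc, at chr15:74669083-74672570, encodes a synaptic protein that takes part in the removal of AMPA receptors. Its values were 19.4, 30 and 63.3 FPKM in saline and 90.4, 132 and 98.1 FPKM in cocaine. The groups did not overlap, but the saline libraries spread more than 3-fold among themselves. The log2 fold change was 1.63 (standard error 0.42, 95% interval from 0.78 to 2.48, adjusted p = 0.915 by limma). It was largest, at 2.08, without saline replicate 3, the highest saline library.

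Fos, the founding member of the AP-1 transcription factors, lies at chr12:85473890-85477273. It was at 2.42, 2.85 and 5.57 FPKM in saline and at 11.4, 16.0 and 9.47 FPKM in cocaine. Again every cocaine library was above every saline library, with a log2 fold change of 1.56 and a 95% interval from 0.52 to 2.59. The adjusted p was 1.0 by limma.

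The letters upstream of 3 immediate early genes, Nr4a1, Fos and Dusp1, are shown because several genes of this kind carry the same short element. The cAMP response element reads TGACGTCA, and the factor CREB also binds its core, TGACG. In the 250 bases before the transcription start, as given by RefSeq for GRCm38.p6, the core on either strand was present in 16 of the 23 windows that matched 18 of the 23 immediate early genes tested, or 69.6%. Over all 32851 windows of the same length it was present in 17.8%. Of the 10 list members without overlap between the groups, 8 had windows, and the core was in 9 of these 12 windows, or 75%. That is near the share of the whole list, so the core did not set those members apart from it. The whole element, each copy of which also contains the core on both strands, was present in 2 of the 23 windows, those of Btg2 and Dusp1, against 1.55% of all windows. The stretches below run 5′ to 3′ on the strand of the gene, end at the base before its start, and have the core or its reverse complement, CGTCA, in capitals.
Nr4a1, chr15:101266596-101266845, plus strand: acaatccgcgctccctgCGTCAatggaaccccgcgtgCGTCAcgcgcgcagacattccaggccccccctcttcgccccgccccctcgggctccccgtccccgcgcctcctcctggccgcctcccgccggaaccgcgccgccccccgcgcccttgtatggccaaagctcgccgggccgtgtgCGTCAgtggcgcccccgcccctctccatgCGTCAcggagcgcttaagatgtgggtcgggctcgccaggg
Fos, chr12:85473640-85473889, plus strand: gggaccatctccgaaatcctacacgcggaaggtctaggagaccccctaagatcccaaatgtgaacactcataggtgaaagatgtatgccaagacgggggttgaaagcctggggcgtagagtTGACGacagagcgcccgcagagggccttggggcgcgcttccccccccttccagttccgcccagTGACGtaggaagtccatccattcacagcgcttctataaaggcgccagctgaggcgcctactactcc
Dusp1, chr17:26508473-26508722, minus strand: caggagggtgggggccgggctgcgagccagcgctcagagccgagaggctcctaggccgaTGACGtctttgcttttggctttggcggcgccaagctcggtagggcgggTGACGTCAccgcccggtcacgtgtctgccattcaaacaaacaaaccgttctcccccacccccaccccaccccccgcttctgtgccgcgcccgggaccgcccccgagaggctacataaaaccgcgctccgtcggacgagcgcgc
Nr4a1 held 4 copies, the nearest 40 and 69 bases before the start, and Fos held 2, the nearer 66 bases before it. Dusp1 held 3, of which those 143 and 140 bases before the start overlap and form the whole element. A match is a description of the letters and was not set against binding in these samples.

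The list of immediate early genes held 25 genes, of which 23 were tested and 2, Fosl1 and Atf3, stayed under 1 FPKM in all 6 libraries. Of the 23, 20 had a fold change above 0, against 6323 of all 13547 genes. The groups did not overlap, with cocaine higher, in 10 of the 23, where 2.23% of all genes did so, and 0 of the 23 were lower without overlap. An unadjusted p under 0.05 was found in the same number, 10 higher and 0 lower, where 0.664% and 0.605% of all genes were. No member passed after adjustment over all genes. The median log2 fold change of the list was 0.44 and that of all genes -0.0098. The summed level of the 23 genes was between 453 and 558 FPKM in the saline libraries and between 700 and 845 FPKM in the cocaine libraries. Members of this list are known to be induced together, so that they are not independent measurements.

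Beyond Nr4a1, Arc and Fos, which are described above, the members without overlap were Egr1, Egr2, Npas4, Nr4a3, Fosl2, Klf4 and Dusp1, named after their values were seen. Egr1, a zinc finger transcription factor that is abundant in striatum, was at 108, 86.3 and 106 FPKM in saline and at 141, 157 and 266 FPKM in cocaine. The highest value was that of the set-apart cocaine replicate 3, and the log2 fold change was 0.85 with it and 0.58 without it. Egr2, of the same family, was at 2.07, 2.59 and 3.91 FPKM in saline and at 6.73, 7.71 and 9.49 FPKM in cocaine, a log2 fold change of 1.24 with a standard error of 0.46. Npas4, a factor induced by calcium entry in neurons, was at 4.14, 3.35 and 7.97 FPKM in saline and at 10.1, 12.2 and 15.4 FPKM in cocaine, a log2 fold change of 1.19. For all 3 the lowest cocaine library stood above the highest saline library.

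Dusp1, a phosphatase that inactivates MAP kinases, was at 16.7, 12.4 and 16.7 FPKM in saline and at 21.6, 26.2 and 30.6 FPKM in cocaine, with a log2 fold change of 0.74 and an interval from 0.20 to 1.28. Fosl2, another AP-1 subunit, was at 3.04, 3.78 and 3.32 FPKM in saline and at 7.58, 7.58 and 5.6 FPKM in cocaine, a log2 fold change of 0.85. Nr4a3 and Klf4, a nuclear receptor and a zinc finger factor, had log2 fold changes of 0.88 and 0.43, and Klf4 stayed under 3 FPKM throughout.

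**Figure D2:**
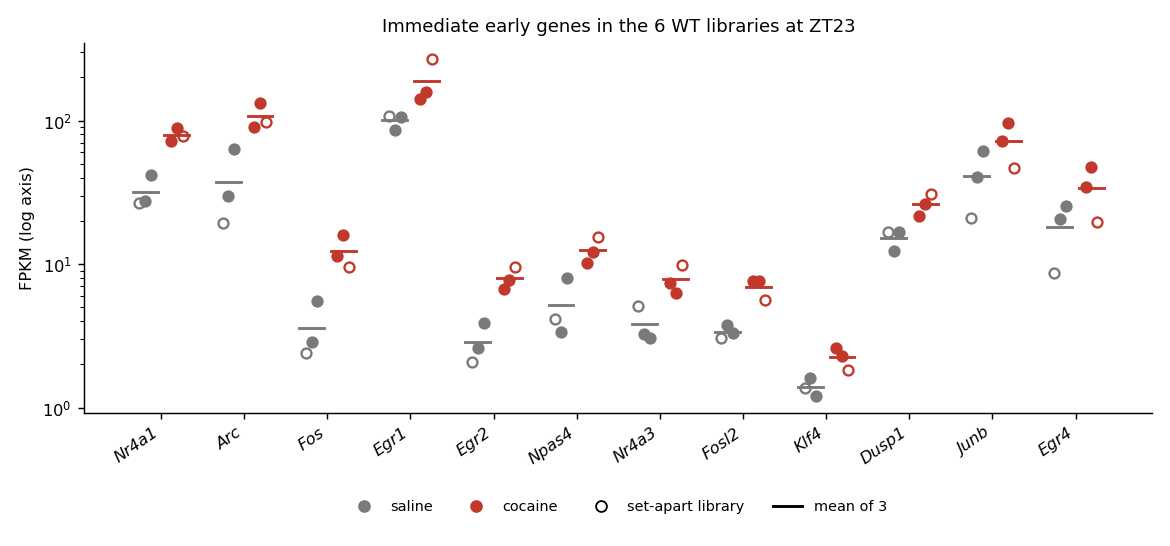
FPKM on a log axis in the 3 saline (grey) and 3 cocaine (red) WT libraries at ZT23 for 12 immediate early genes, 1 point a library, with a bar at the mean of 3 and open circles for the 2 set-apart libraries. In the first 10 genes every red point is above every grey point, while in Junb and Egr4 the open red point lies among the grey ones.

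Junb and Egr4 overlapped between the groups, and the set-apart libraries were the lowest of their groups in both genes. Junb, an AP-1 subunit, was at 21.1, 40.3 and 61.2 FPKM in saline and at 72.1, 96.2 and 46.5 FPKM in cocaine. Within the set-apart pair it was 21.1 against 46.5 FPKM, and among the other libraries both cocaine values exceeded both saline values. The median log2 difference of the list was 0.46 within the set-apart pair, with 21 of 23 genes above 0, and 0.51 in the other 2 against 2, with 19 above 0. With the library score as a covariate, 12 of the 23 were higher at an unadjusted p under 0.05 by limma, where 229 of all 13547 genes were. Without the set-apart libraries 7 of the 23 were, where 161 of all genes were. In the main fit it was 10 of the 23, where 90 of all genes were. With the covariate the smallest adjusted p over all genes, at 0.195, was still above the threshold.

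Not every immediate early gene followed. Egr3, a relative of Egr1, was at 65.8, 65.7 and 55.6 FPKM in saline and at 49.7, 50.9 and 70.9 FPKM in cocaine, a log2 fold change of -0.14 with an interval from -0.72 to 0.45. The nuclear receptor Nr4a2 and the stress-induced Ier3 had log2 fold changes of -0.18 and -0.038, and their groups overlapped. The sign of Nr4a2 and Ier3 depended on which libraries entered the fit. Homer1, Jund and Nptx2, named after their values were seen, lay just above 0, at 0.0040, 0.080 and 0.080, with overlapping groups. With 1 library left out they ranged from -0.35 to 0.32, from -0.40 to 0.49 and from -0.45 to 0.48.

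Among genes with a mean of at least 5 FPKM and no overlap, the 8 with the smallest unadjusted p on the higher side were Nr4a1, Arc, Midn, Uspl1, Invs, Stk40, Dusp6 and Slc25a25. Dusp6, a phosphatase specific to ERK, was at 11.7, 14.2 and 15.7 FPKM in saline and at 23.3, 26.7 and 19.2 FPKM in cocaine, a log2 fold change of 0.69 with an interval from 0.24 to 1.15. Dusp4 and Dusp5, nuclear phosphatases of the same family named after their values were seen, had log2 fold changes of 0.61 and 0.63 without overlap, at less than 6 FPKM in every library. Trib1, a pseudokinase, and Gpr3, a receptor that raises cAMP without a ligand, also named after their values were seen, were higher without overlap by 0.50 and 0.72.

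Midn encodes midnolin, which brings immediate early proteins to the proteasome. It was at 11.2, 11.4 and 12.6 FPKM in saline and at 17.6, 18.7 and 17.9 FPKM in cocaine, so that the gap between the groups was wider than the spread within either. Its log2 fold change was 0.58, with a standard error of 0.17 and an unadjusted p of 0.00147, the limma adjusted p being 1.0. Slc25a25, a mitochondrial carrier of ATP-magnesium and phosphate, was at 24.9, 23.6 and 24.7 FPKM in saline and at 30.8, 32.3 and 31.0 FPKM in cocaine, a log2 fold change of 0.35. The SUMO protease gene Uspl1, the kinase-related Stk40 and the cilium gene Invs had log2 fold changes of 0.36, 0.30 and 0.97. None of these 8 passed after adjustment.

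On the lower side, genes are named by the same rule, again among those with a mean of at least 5 FPKM, and genes of lower level with smaller p are not named. Haus2, a subunit of the augmin complex of microtubule branching, was at 9.13, 6.39 and 5.73 FPKM in saline and at 4.48, 3.21 and 4.82 FPKM in cocaine, a log2 fold change of -0.64 with an interval from -1.05 to -0.22. Agbl3, which removes glutamates from tubulin tails, was at 6.57, 6.03 and 6.04 FPKM in saline and at 5.24, 4.61 and 2.84 FPKM in cocaine. Slc7a5, the light chain of the large neutral amino acid transporter, was at 15.4, 18.7 and 16.5 FPKM in saline and at 14.3, 13.1 and 10.5 FPKM in cocaine, a log2 fold change of -0.40. In all 3 the highest cocaine library stood below the lowest saline library.

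Thtpa, a thiamine triphosphatase, differed by -0.29 on the log2 scale, with saline values from 13.5 to 15.1 FPKM and cocaine values from 11.2 to 11.5 FPKM. Lrrc8d, a subunit of volume-regulated anion channels, differed by -0.23. The RIKEN genes 2810029C07Rik and 2610524H06Rik differed by -0.62 and -0.51. The limma adjusted p was 1.0 for each of these genes.

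In the core clock list the groups overlapped in all 23 genes, all of which were tested, and the median log2 fold change was -0.019. Over all genes 2.23% were higher and 1.97% lower without overlap, so that this count is near the background. Nfil3, a repressor of clock output genes named after its values were seen, had the smallest p of the list, at an unadjusted p of 0.0347 with a log2 fold change of 0.44 and an adjusted p of 1.0 by limma. It was at 1.92, 3.55 and 3.62 FPKM in saline and at 4.38, 6.11 and 3.02 FPKM in cocaine, the lowest of each group being the set-apart library. Per1 and Per2, the period genes that repress the clock and also respond to cAMP, had the smallest p among members with a mean of at least 5 FPKM. Per1 was at 18.5, 22.1 and 25.6 FPKM in saline and at 32.9, 30 and 23.3 FPKM in cocaine, a log2 fold change of 0.36 with an interval from -0.064 to 0.79. Per2 was at 9.23, 8.12 and 9.81 FPKM in saline and at 13.5, 9.74 and 14.8 FPKM in cocaine, a log2 fold change of 0.43 with an interval from -0.12 to 0.98. In both, 1 cocaine library lay within the saline values.

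Cry1, the cryptochrome repressor, differed by 0.19 and Arntl, the activator also called Bmal1, by 0.31, with intervals that included 0. Dbp, a target of the clock activators, was at 46.5, 98.0 and 154 FPKM in saline and at 96.1, 88.4 and 58.0 FPKM in cocaine. Its lowest value in each group was in the set-apart library, and its interval ran from -0.86 to 0.52. Clock, the partner of Arntl, was at 22.5, 10 and 9.08 FPKM in saline and at 12, 7.97 and 21.0 FPKM in cocaine, with the set-apart library highest in each group and an interval from -0.75 to 0.73.

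**Figure D3:**
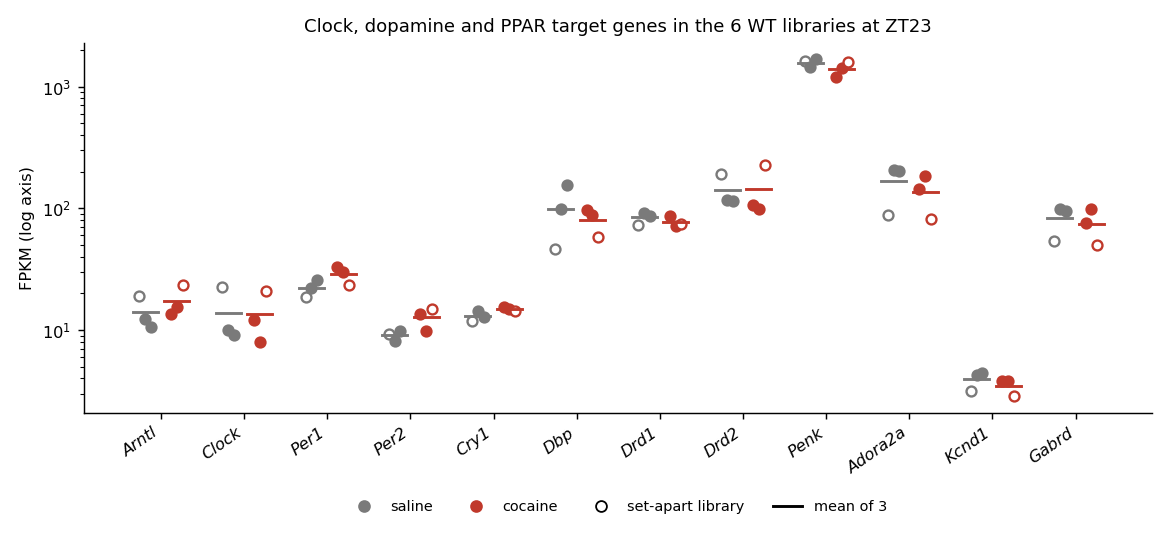
FPKM on a log axis in the 3 saline (grey) and 3 cocaine (red) WT libraries at ZT23 for clock genes, dopamine and opioid genes and putative PPAR targets, 1 point a library, with a bar at the mean of 3 and open circles for the set-apart libraries. The 2 groups overlap in each of the 12 genes, and for Clock, Drd2, Adora2a and Gabrd the open circles lie away from the filled ones.

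Genes of dopamine and opioid signalling lay slightly lower as a list, with a median of -0.14 over 37 tested genes and 5 above 0. The median was -0.020 in the set-apart pair, with 16 of 37 above 0, and -0.19 in the other 2 against 2, with 5 above 0. Drd1, the dopamine D1 receptor, was at 73.0, 92.3 and 87.2 FPKM in saline and at 86.8, 70.9 and 74.1 FPKM in cocaine, an interval from -0.55 to 0.31 on the log2 scale. Drd2 was at 193, 118 and 115 FPKM in saline and at 107, 99.1 and 228 FPKM in cocaine, with the set-apart library highest in each group. Penk, the enkephalin precursor of indirect pathway neurons, had the highest level of these genes, with 1575 ± 119 FPKM in saline and 1400 ± 199 FPKM in cocaine (SD, n = 3), and a log2 difference of -0.18.

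Rgs2, a regulator of G protein signalling that responds quickly to receptor stimulation, was the only gene of the 37 without overlap, where 2.23% of all genes were higher without overlap, so that the count is near the background. It was at 41.1, 32.3 and 43.2 FPKM in saline and at 49.8, 50.0 and 65.7 FPKM in cocaine, a log2 fold change of 0.49 with an interval from 0.073 to 0.91 and a limma adjusted p of 1.0. Oprk1, the receptor for dynorphin, had a log2 fold change of -0.28 with overlapping groups.

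PPARγ is a nuclear receptor for lipids, and the study followed several of its putative targets. Pparg itself stayed under 1 FPKM in all 6 libraries and was not tested. Of the 40 genes in the PPAR list, 36 were tested, with a median of 0.017 and 19 above 0. Adora2a, the adenosine A2a receptor, was at 87.4, 208 and 204 FPKM in saline and at 144, 183 and 81.8 FPKM in cocaine. Kcnd1, a potassium channel subunit, and Gabrd, a GABA-A receptor subunit, differed by -0.13 and -0.15 on the log2 scale. The intervals of all 3 included 0, and the 2 set-apart libraries were the lowest of their groups in each gene.

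Cytosolic chaperones and related genes, many of them raised by heat and stress, were slightly higher as a list. The list also held the mitochondrial chaperones Hspd1, Hspe1 and Hspa9 and the transcription factors Hsf1 and Hsf2. The median over 43 tested members was 0.11, 36 of the 43 were above 0, and 8 were higher without overlap against 2.23% of all genes. An unadjusted p under 0.05 by limma was found in 2 of the 43, both higher, where 0.664% of all genes were. Ahsa2, an activator of the HSP90 ATPase, was at 6.20, 4.64 and 5.40 FPKM in saline and at 7.26, 9.17 and 8.33 FPKM in cocaine, a log2 fold change of 0.53. Dnajb5, a cochaperone of HSP70, differed by 0.45, and Fkbp4 and Hsp90aa1, named after their values were seen, by 0.26 and 0.12. The median was as low as 0.031 and as high as 0.23 with 1 library left out. Of the 25 chaperones and stress genes of the endoplasmic reticulum, Xbp1, the transcription factor of the unfolded protein response, was the only member without overlap, again a count near the 2.23% of all genes, at 45.3, 43.6 and 45.1 FPKM in saline and 49.5, 56.9 and 60.3 FPKM in cocaine.

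Genes of cholesterol synthesis lay lower. The median over 25 genes was -0.16, 21 of the 25 were below 0, and 3 were lower without overlap against 1.97% of all genes. Hmgcs1, which makes the HMG-CoA of the sterol pathway, was at 86.1, 81.4 and 72.3 FPKM in saline and at 59.7, 57.1 and 71.9 FPKM in cocaine, a log2 fold change of -0.34 with an unadjusted p of 0.0283. Dhcr7, the last enzyme of one branch of the pathway, was at 11.4, 12.8 and 10.1 FPKM in saline and at 10.1, 9.74 and 9.90 FPKM in cocaine, a log2 fold change of -0.18, and its nearest values in the 2 groups are equal as rounded here. Both were named after their values were seen. Over all libraries left out in turn the median stayed between -0.19 and -0.10.

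**Figure D4:**
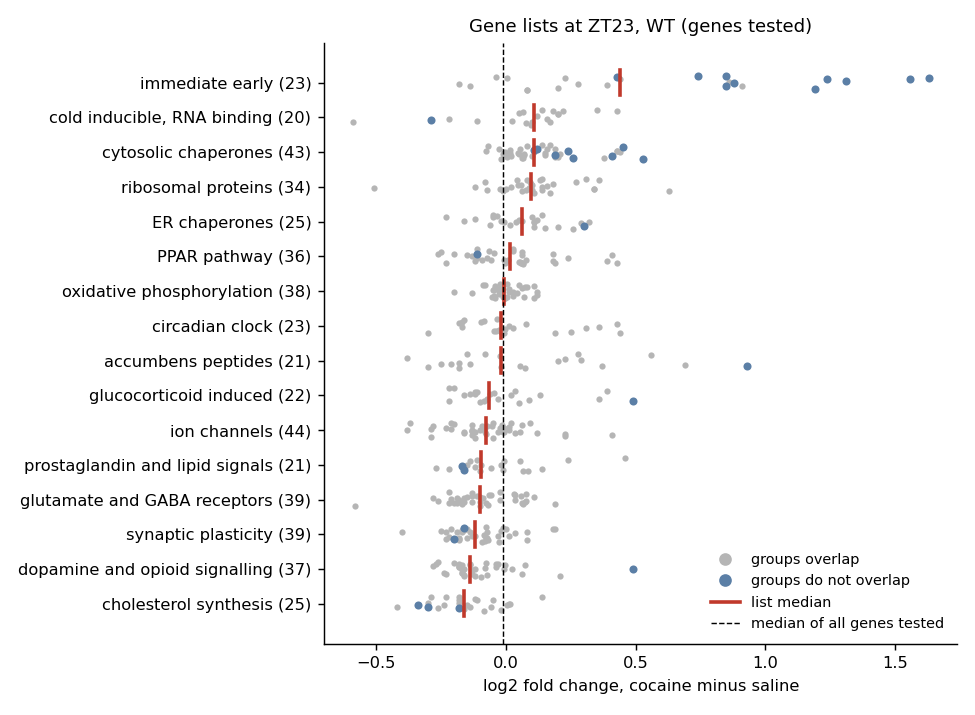
Log2 fold change, cocaine minus saline at ZT23 in WT, for each tested member of 16 gene lists, with the number tested in brackets. Blue points have groups that do not overlap, red bars are list medians, and the dashed line is the median of all 13547 genes. The immediate early list, with a median of 0.44, lies furthest to the right.

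Synaptic plasticity genes had a median of -0.12, glutamate and GABA receptors of -0.099 and ion channels of -0.078, and of these 3 lists 2 members in all, both of synaptic plasticity and both lower, were without overlap, where 1.97% of all genes were lower without overlap. The members with the smallest p were Vamp2, a vesicle protein of transmitter release, with a log2 fold change of -0.20 and no overlap, Grin1, the shared subunit of NMDA receptors, with -0.22, and Kcnip3, a partner of potassium channels, with -0.21. The intervals of all 3 included 0. Medians of the lists not yet given, cell type markers aside, lay between -0.094 and 0.11.

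The punches could hold other cell types, and the marker lists of these are given for the same libraries. Spiny neuron markers summed to between 4486 and 5084 FPKM in saline and between 4072 and 4654 FPKM in cocaine. Oligodendrocyte markers summed to between 2454 and 4093 FPKM in saline and between 2418 and 3834 in cocaine. Their median log2 difference was 0.64 in the set-apart pair, with 12 of 12 above 0, and -0.42 in the other 2 against 2, with 0 of 12 above 0. Astrocyte markers summed to between 937 and 1127 and between 834 and 1179, and markers of cortical excitatory neurons to between 308 and 399 and between 200 and 436. The ependyma and choroid plexus list had the highest median of all lists, 0.75 over 7 tested genes, with sums between 14.2 and 34.8 FPKM in saline and between 18.1 and 68.0 in cocaine. Its members went both ways, with 5 above 0 and 2 below, Ttr at -1.59 and Clic6 at -0.093 on the log2 scale. At ZT11 in WT the median of this list was 0.82, with 5 of the 7 higher without overlap (5.74% of all genes). Of its 11 genes, 4 stayed under 1 FPKM, and Foxj1, a factor of ciliated cells, was at 2.95, 5.31 and 4.25 FPKM in saline and 8.10, 12.3 and 4.21 in cocaine. At ZT23 no marker list had more than 1 member without overlap in either direction, where 2.23% of all genes were higher and 1.97% lower without overlap. The part of these cell types in the results above was not tested. In such bulk tissue fewer cells of a type and less RNA per cell cannot be told apart.

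The cocaine effect at ZT23 was then set against that at the other hours and in the other genotype, each with its own saline libraries. No gene differed between ZT23 and the mean of ZT7, ZT11, ZT15 and ZT19 in WT by limma (smallest adjusted p 1.0), with 153 genes, 1.13%, at an unadjusted p under 0.05. Of the 23 immediate early genes, Nr4a1 and Arc were among these 153, with unadjusted p of 0.0300 and 0.00701. Immediate early genes were higher without overlap in 3 of 23 at ZT7 (4.79% of all genes), 2 at ZT11 (5.74%), 8 at ZT15 (5.0%) and 3 at ZT19 (5.07%) in WT, and in 10 at ZT23. At ZT11 4 of the 23 were lower without overlap, where 814 of all 13547 genes were. At the other 4 hours 0 of the 23 were, where between 267 and 1006 of all genes were. Their median log2 fold change was 0.10 at ZT7, -0.080 at ZT11, 0.32 at ZT15, 0.44 at ZT19 and 0.44 at ZT23. At ZT19 in WT, 2 of the 3 libraries of each group were set-apart ones.

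Between ZT7 and ZT23 in WT saline Nr4a1 was lowest at ZT7, with 20.3 ± 2.94 FPKM, and highest at ZT15, with 40.1 ± 5.43 FPKM (SD, n = 3). In WT cocaine it was at 21.8 ± 8.71 FPKM at ZT11, 82.5 ± 16.6 at ZT15, 71.9 ± 44.0 at ZT19 and 79.1 ± 8.37 at ZT23. The spread at ZT19 came from 1 library at 123 FPKM beside 48.5 and 44.6. Arc in WT cocaine was at 19.3 ± 1.36 FPKM at ZT11, 78.9 ± 21.1 at ZT15, 72.2 ± 60.9 at ZT19 and 107 ± 22 at ZT23. Neighbouring dark hours did not differ beyond these spreads in either gene.

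**Figure D5:**
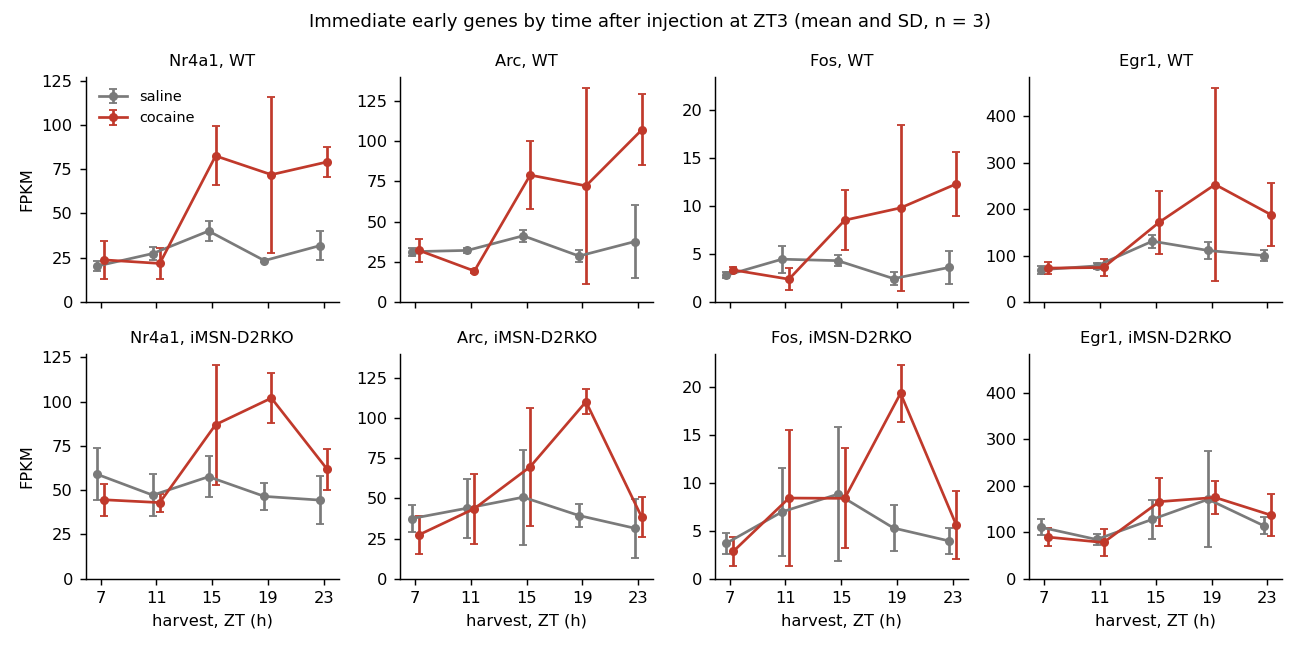
Mean FPKM with SD (n = 3 libraries a point) of Nr4a1, Arc, Fos and Egr1 by hour of harvest (ZT, h) in WT (upper row) and iMSN-D2RKO (lower row) after saline (grey) or cocaine (red) at ZT3. In WT the red and grey error bars are apart at ZT23 for all 4 genes, while in iMSN-D2RKO they overlap at ZT23.

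In iMSN-D2RKO at ZT23 the immediate early genes overlapped between cocaine and saline in all 23, where 1.73% of all genes were higher without overlap, and their median log2 fold change was 0.083. Nr4a1 was at 41.1, 59.2 and 32.9 FPKM in saline and at 62.0, 50.0 and 73.5 FPKM in cocaine there. At ZT19 in this genotype, however, 14 of the 23 were higher without overlap (6.25% of all genes) and the median was 0.87. Saline replicates 1 and 3 there were set-apart libraries and no cocaine replicate was, so treatment and kind of library cannot be told apart at that hour. The test of the difference between the genotypes at ZT23 passed for no gene by limma (smallest adjusted p 1.0), with 219 genes, 1.62%, at an unadjusted p under 0.05. Of the 23, Arc alone was among these, at 0.0403, so that a difference of the immediate early response between the genotypes at ZT23 was not shown.

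The list of cytosolic chaperones and related genes had medians of opposite sign in the 2 genotypes at ZT23, 0.11 in WT and -0.21 in iMSN-D2RKO. In iMSN-D2RKO 8 of the 43 were lower without overlap against 2.20% of all genes. The difference between the genotypes had an unadjusted p under 0.05 by limma in 5 of the 43, where 1.62% of all genes did. Ahsa2 was among the 5, at 3.55e-04, and none passed after adjustment. Both iMSN-D2RKO groups at ZT23 also held 1 set-apart library each. Saline replicate 2 there, not a set-apart one, had the lowest library score of the series, -35.87, and summed to 465297 FPKM. The other libraries of these groups summed to between 387699 and 400422 FPKM. Its part in the difference was not tested.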

How the data were processed

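The authors aligned reads of stranded poly(A) libraries to mm10 with TopHat and Bowtie and computed FPKM per gene with Cuffnorm. The submitters' notes also name CASAVA 1.8.2. The deposited table gives FPKM for 24138 loci, and 6 of its 72 columns repeat other columns and were left out. Groups came from the labels. Values were tested as log2(FPKM + 1) with limma 3.58.1 in R 4.3.3, with a trend, a group-means model over all 66 libraries and Benjamini-Hochberg adjustment over the 13547 genes at 1 FPKM or more in at least 1 of the 6 libraries. Fold changes on this scale understate those of low genes. The gene lists and the rule for named genes (the smallest p among genes without overlap and among members of each list, both at a mean of at least 5 FPKM, and genes of the study) were chosen with earlier results of these data known. The library score is the first axis, 43.6% of the variance, of the differences within groups. Replicate numbers were not used as pairs in the main fit. Deviations of same-numbered libraries correlated at -0.482, 0.577 and -0.721, and those of the set-apart saline replicate 1 and cocaine replicate 3 at 0.839. Such correlations cannot show whether same-numbered samples were handled together. The fit was tested on simulated data. Gene coordinates are from GENCODE for GRCm38. Some genes are not reported here.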

Additional observations from a re-analysis of the deposited data

How the results depend on the processing

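With 3 libraries a group, values in FPKM and no read counts, log2 differences as large as 1.63, in Arc, did not pass the adjusted test. Genes near 1 FPKM are least certain. The count of 0 genes for cocaine against saline at ZT23 in WT held under other pseudocounts, scalings, robust moderation, a mean filter, fewer libraries in the fit, the library score as a covariate (smallest adjusted p 0.195) and the set-apart libraries as a batch term, which was added after seeing the data. With a replicate block it was also 0, and the block changed no call. Array weights gave 5547 genes, and 4687 and 4513 for the comparisons with other hours and with iMSN-D2RKO. That estimate did not converge, with weights from 0.00262 to 9550, the largest that of WT cocaine replicate 1. Weights estimated gene by gene, added after seeing the data, gave 2002, 1567 and 325. Without a filter on low values 1 gene, Gm13539, passed, and without the set-apart libraries 1 entry, Dancr with Snora26, passed here and 1 in the comparison with other hours. With 1 library left out, the counts were 0 to 2 (Snora30, Mir219a-1 or Dancr with Snora26), 0 to 1 (Dancr with Snora26 without saline replicate 1, Col20a1 without saline replicate 3) and 0 to 0. Scaling every library to the same sum moved the split at an unadjusted p under 0.05 from 90 higher and 82 lower to 99 and 59. Of 572 repeats of list medians 567 moved by less than the spread between replicates, and of 1628 repeats over 74 single genes 23 changed sign, in 7 of these 74, all with intervals that include 0. Clock, at -0.0077, became 0.27 with either set of weights, 0.022 with the score covariate, 0.012 after scaling to the same sum and 0.036 without the set-apart libraries. Nr4a2, at -0.18, became 0.22 and 0.17 with the 2 sets of weights and 0.099 without the set-apart libraries. With 1 library left out, Clock ranged from -0.35 to 0.38, Nr4a2 from -0.45 to 0.16, Dbp from -0.63 to 0.22, Adora2a from -0.67 to 0.066, Gabrd from -0.43 to 0.11, Drd2 from -0.42 to 0.21 and Ier3 from -0.46 to 0.41. The cause of these changes was not tested.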

Other observations

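Some entries of small RNAs were high in a single library. Snora30 was at 315 FPKM in cocaine replicate 2 and at 0 in the other 5 libraries, and Mir219a-1 was at 112 FPKM in cocaine replicate 1 alone. The joined entry of Dancr and Snora26 was at 40.3 FPKM in saline replicate 2 and between 2.08 and 8.05 FPKM in the others. These entries passed the test only in fits that left out a library, and were named after their values were seen.

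Genes whose groups did not overlap at ZT23 were compared between the genotypes, which do not share saline libraries. Of the 302 higher and 267 lower in WT, 7 were also higher and 14 also lower in iMSN-D2RKO, while 10 and 24 differed in the opposite direction. Over all genes in iMSN-D2RKO, 1.73% were higher and 2.20% lower without overlap.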
